A study of Mus musculus with 2 samples.

Results

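The phagocyte NADPH oxidase is the enzyme with which macrophages and neutrophils make superoxide, and 7 genes that encode its parts and small GTPase partners were followed in adipose tissue macrophages (ATM) with and without a deletion of Hif1a. The members were Cybb, Cyba, Ncf1, Ncf4, Rac1, Rac2 and Rap1a, chosen by name and matched by Ensembl identifier, 7 of the 20330 genes in the deposited table. ATM were sorted by FACS, with antibodies against the macrophage surface proteins that Adgre1 and Itgam encode, from visceral fat after 12 weeks of a high-fat diet. The WT library came from hMRP8cre-;Hif-1αfl/fl;ApoE-/- mice and the KO library from hMRP8cre+;Hif-1αfl/fl;ApoE-/- mice, all on C57BL/6. By these labels both genotypes were ApoE-/- and carried loxP-flanked Hif1a, and only KO mice carried Cre recombinase, driven by the human MRP8 (S100A8) promoter in myeloid cells, so that sorted cells in which Cre did not act can remain. There was 1 library per genotype, with no replicates, and the labels do not give the age of the mice or whether animals were pooled.

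In its resting state the oxidase is split between membrane and cytosol. Cybb (gp91phox, also NOX2) and Cyba (p22phox) form the membrane flavocytochrome that passes electrons from NADPH to oxygen. Ncf1 (p47phox) is the organizer that is phosphorylated and docks on p22phox, Ncf4 (p40phox) binds a phosphoinositide of the phagosome membrane, and both move to the membrane on activation. Rac1 and Rac2 are the GTPases whose active form completes the complex, Rac2 being the form of blood cells, and Rap1a is a GTPase that was found together with the flavocytochrome. The oxidase serves killing of ingested microbes and redox signalling in macrophages.

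All 7 members were highly expressed in both libraries and lay close together between them. Their values ran from 85.2 to 612 FPKM (fragments per kilobase of transcript, scaled by mapped fragments), and every member was among the top 8.46% of the 10297 genes that reached 1 FPKM in either library. Of the 7 members 4 were higher and 3 were lower in KO, and no pair of values differed by more than 1.26-fold. The 4 higher ones were the membrane and cytosolic subunits and the 3 lower ones were the GTPases, although Rac1 was so close to equal that other scalings turned its sign, and Rap1a came to near 0 under one of them. With 1 library per genotype these differences have no replicate error and no p-value.

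**Figure D1:**
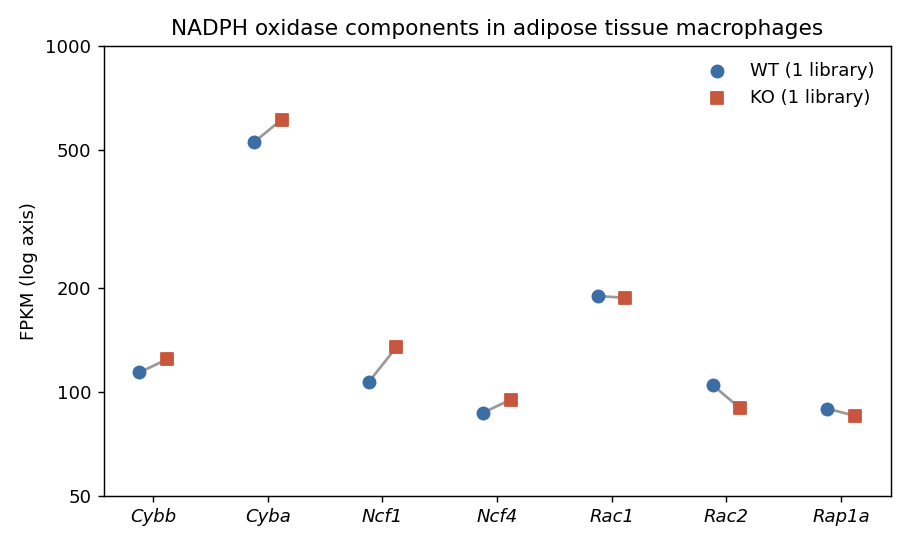
FPKM (log axis) of the 7 NADPH oxidase components in the WT library (circles) and the KO library (squares), each point 1 library, with a line joining the values of a gene. Cyba sits apart at 527 and 612 FPKM, Rac1 follows at 189 and 187, and the other 5 genes lie between 85.2 and 134.

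The membrane subunits came first. Cyba was the highest member, at 527 FPKM (WT) and 612 FPKM (KO), 1.16-fold higher in KO and 0.22 higher on the log2(FPKM + 1) scale used below for every change. Cybb was at 114 FPKM (WT) and 124 FPKM (KO), a change of 0.12. The transcript of the small subunit thus exceeded that of the catalytic subunit in either genotype, by 4.63-fold in WT and 4.94-fold in KO on the per-length FPKM scale.

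The starts of these oxidase genes are shown because the deleted factor, HIF-1, binds DNA at a short core that can be searched for in them. RefSeq promoter windows (GRCm38.p6) were at hand for 3 of the 7 members, Cybb, Cyba and Ncf1, and the 250 bases before each start were searched on both strands. The windows are chrX:9469325-9469574 for Cybb, chr8:122432941-122433190 for Cyba and chr5:134229626-134229875 for Ncf1, all on the minus strand and printed 5′ to 3′ in the direction of the gene. The Cybb window lies inside the longer GENCODE span of that gene. Capitals mark GGAA (or TTCC on the other strand), the core bound by Ets factors such as PU.1, and CCAAT, the core of the CCAAT box, none of which overlap here.
Cybb: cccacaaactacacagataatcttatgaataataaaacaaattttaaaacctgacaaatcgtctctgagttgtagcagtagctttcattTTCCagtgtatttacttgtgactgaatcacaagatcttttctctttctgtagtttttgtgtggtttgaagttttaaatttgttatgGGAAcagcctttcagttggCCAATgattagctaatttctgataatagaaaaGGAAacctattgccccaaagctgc
Cyba: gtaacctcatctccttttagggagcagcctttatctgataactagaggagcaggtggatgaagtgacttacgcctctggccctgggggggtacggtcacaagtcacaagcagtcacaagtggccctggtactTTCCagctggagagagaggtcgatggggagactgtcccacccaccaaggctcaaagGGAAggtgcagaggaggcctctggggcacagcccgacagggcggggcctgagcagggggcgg
Ncf1: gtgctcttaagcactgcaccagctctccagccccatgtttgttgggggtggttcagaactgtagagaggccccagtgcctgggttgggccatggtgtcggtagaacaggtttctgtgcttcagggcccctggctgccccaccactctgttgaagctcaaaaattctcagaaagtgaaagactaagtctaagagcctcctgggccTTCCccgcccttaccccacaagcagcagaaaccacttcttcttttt

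The letters ACGTG are a form of the core of the hypoxia response element that HIF-1 recognises, and other forms were not searched for. They were on either strand in 0 of these 3 windows and in 16.6% of 32851 RefSeq windows of the same length. The Ets core was found 3 times before Cybb, 2 times before Cyba and 1 time before Ncf1, and 93.4% of all windows hold it. The Cybb window also held 1 CCAAT box, from -56 to -52 relative to the start, and 33.8% of all windows hold one on either strand. The window of Cybb had 34.0% G and C, against 60.0% for Cyba and 54.4% for Ncf1. A match is not a bound site, and the absence of these letters says nothing of elements farther away.

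Among the cytosolic subunits Ncf1 showed the largest difference of all members, from 107 FPKM in WT to 134 FPKM in KO, a change of 0.33. Ncf4 was at 87.0 FPKM (WT) and 94.8 FPKM (KO), a change of 0.12. The Ncf1 transcript was 1.23 times that of Ncf4 in WT and 1.42 times in KO. Relative to Cybb it stood at 0.938 in WT and 1.08 in KO, so these subunits changed places in the order of the levels. Summed over the 4 subunits, FPKM was 834 in WT and 965 in KO, a ratio of 1.16.

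Among the GTPases Rac1 was at 189 FPKM (WT) and 187 FPKM (KO), a change of -0.01, which became 0.03 when both libraries were scaled to the same FPKM sum and 0.05 at the same upper quartile. Rac2 was at 104 FPKM (WT) and 89.5 FPKM (KO), a change of -0.22 and the largest difference towards WT. Rap1a was at 89.3 and 85.2 FPKM, a change of -0.07, which became -0.02 at the same FPKM sum and -0.00 at the same upper quartile, where Rac2 was at -0.15. Rac1 exceeded Rac2 by 1.81-fold in WT and 2.09-fold in KO. The sum of the 3 GTPases was 383 FPKM in WT and 362 FPKM in KO.

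From highest to lowest the order was Cyba, Rac1, Cybb, Ncf1, Rac2, Rap1a and Ncf4 in WT, and Cyba, Rac1, Ncf1, Cybb, Ncf4, Rac2 and Rap1a in KO. Cyba and Rac1 kept their places, and the 5 others, which spanned 87.0 to 114 FPKM in WT, did not keep theirs. Whether neighbours in this order differ beyond the spread of replicates cannot be said from 1 library. Together the 7 genes took 0.208% of the FPKM total (WT) and 0.233% (KO).

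Genes at a like level give the scale for these differences. Of all 10297 genes compared, 27.3% differed by at least 3-fold in either direction and 45.6% by at least 2-fold, and 0 of the 7 members passed either threshold. Of the 2815 genes past 3-fold only 46 had a mean FPKM of 50 to 1000, so the 1320 genes in that range, which was set after the members' levels were known, are the closer background. There 3.48% passed 3-fold and 11.8% passed 2-fold. The interquartile range of change over these 1320 genes was -0.37 to 0.34, which takes in all 7 members, and 47.2% had a change no larger in size than that of Ncf1. The median change was 0.12 for the members, 0.03 over all genes compared and -0.01 over the 1320 genes. Leaving out Rac1, whose exons overlap another gene, put the members' median at 0.12.

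**Figure D2:**
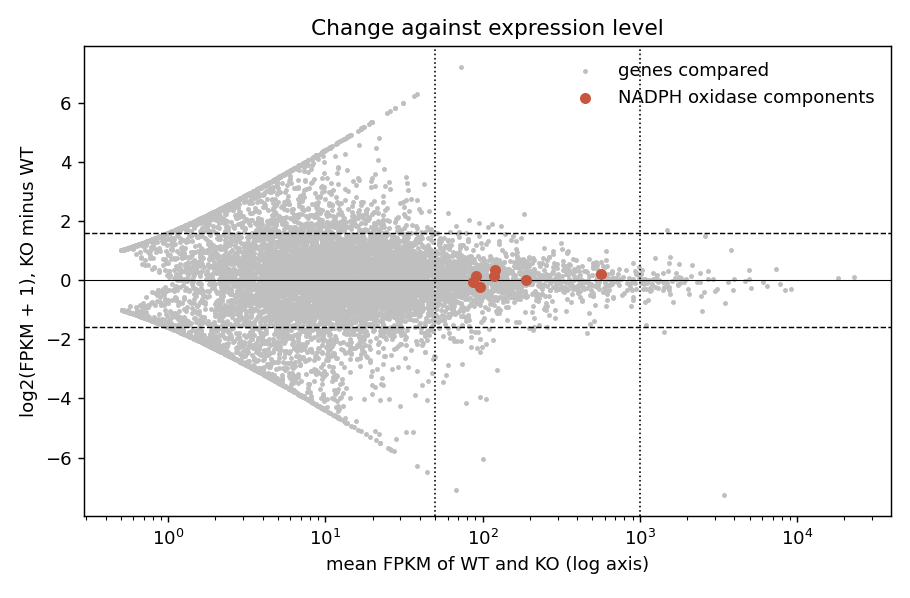
Change in log2(FPKM + 1), KO minus WT, against the mean FPKM of both libraries (log axis), for the 10297 genes compared (grey) and the 7 NADPH oxidase components (red). Dashed lines mark 3-fold and dotted lines a mean of 50 and 1000 FPKM. All 7 components lie near 0, between -0.22 and 0.33, in a range where 3.48% of genes passed 3-fold.

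Depth was estimated from the values. The smallest recurring FPKM step in genes of a single annotated transcript put the depth at about 5870000 fragments in WT and 7460000 in KO. That step rested on 19 genes in WT and 22 in KO. From the median length of the annotated coding transcripts, the members rested on an estimated 410 (Rap1a) to 3594 (Rac1) fragments in WT and 497 (Rap1a) to 4524 (Rac1) in KO. Coding transcripts ran from 390 to 4752 bases for Cybb and from 254 to 3038 for Rac2. Fragment numbers and intervals of these genes are therefore uncertain. On counting error alone the 95% interval of the log2 FPKM ratio left out 0 for 4 members. It was 0.14 to 0.30 for Cyba, 0.04 to 0.21 for Cybb, 0.25 to 0.42 for Ncf1 and -0.34 to -0.10 for Rac2. It held 0 for Ncf4 (-0.03 to 0.28), Rac1 (-0.08 to 0.05) and Rap1a (-0.26 to 0.12), whose differences were not detectable at this depth in the authors' scaling. The change of Ncf4 was 0.17 at the same FPKM sum and 0.19 at the same upper quartile. Intervals were not recomputed for those scalings, so the side on which Ncf4 falls depends on the scaling. These intervals leave out the difference between animals, sorts and library preparations, and copies made by PCR are not independent fragments, so they do not show a difference between the genotypes.

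The annotation bears on what an FPKM value can stand for. Coordinates are those of GENCODE M21 on GRCm38, whereas the submitters' processing notes name mm9. Cybb (ENSMUSG00000015340) lies on the X chromosome at 9435252 to 9487771, Cyba (ENSMUSG00000006519) on chromosome 8 at 122424776 to 122432930, and Rap1a (ENSMUSG00000068798) on chromosome 3 at 105727267 to 105801336. Ncf1 (ENSMUSG00000015950) and Rac1 (ENSMUSG00000001847) are both on chromosome 5, at 134220053 to 134229625 and 143503634 to 143528036. Ncf4 (ENSMUSG00000071715, 78244801 to 78262580) and Rac2 (ENSMUSG00000033220, 78559167 to 78572783) are on chromosome 15 with 297 kb between them, on opposite strands.

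Rac1 shares 2309 exonic bases with Daglb, a lipase gene on the opposite strand, from 143503634 to 143505942. All of the shared bases are untranslated sequence of Rac1, and they are 51.4% of its annotated exonic bases. The library protocol in the labels names no step that marks strand, so reads from the shared stretch cannot be assigned to either gene, and the value of Rac1 is uncertain to that extent. Daglb was at 31.9 FPKM (WT) and 31.5 FPKM (KO). Ncf1 shares 408 exonic bases with Gtf2ird2 on the opposite strand, which was listed at 0 (WT) and at 0.995 FPKM (KO). Of the 50-base stretches in the coding transcripts of Rap1a, 8.78% also occur in other annotated transcripts, mostly in the processed pseudogene Gm9392. The share was 53.6% for Rac1, all of it with Daglb, and 7.89% for Ncf1, mostly with Gtf2ird2. For Rac2 it was 1.33%, and for Cybb, Cyba and Ncf4 it was 0%.

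Genes around the oxidase were compared as groups, by counts and medians beside the 27.3% of all genes that passed 3-fold. The further oxidase genes and homologues followed here numbered 10, of which 9 were matched and 2 could be compared, both higher in KO, with a median change of 1.25. Cybc1, the chaperone that the flavocytochrome needs in order to mature, was at 9.88 FPKM (WT) and 29.4 FPKM (KO), a change of 1.48 that passed 2-fold and not 3-fold. Noxo1, an organizer homologous to Ncf1, was at 3.84 and 8.78 FPKM, a change of 1.02. The catalytic homologues Nox1, Nox3, Nox4, Duox1 and Duox2 were listed at 0 in both libraries, as were Noxa1 and Duoxa2, so Cybb was the sole catalytic subunit listed above 0 among the 6 examined.

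Paralogues of the GTPases were followed for 8 genes, 6 of them lower in KO, with a median change of -0.09. Rac3, the third Rac gene, was at 18.4 FPKM (WT) and 2.14 FPKM (KO), a change of -2.63 and the only one of the 8 past 3-fold. Cdc42, a regulator of filopodia, was the highest at 338 and 276 FPKM. Rhog, a GTPase upstream of Rac, was at 278 FPKM (WT) and 199 FPKM (KO), a change of -0.48, and Rap2c was at 4.49 and 8.34 FPKM, a change of 0.77.

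Regulators that load, unload or sequester Rac and Rap numbered 17, of which 10 were lower and 7 were higher in KO, with a median change of -0.28. A single one passed 3-fold. This was Arhgap25, a GTPase-activating protein for Rac in phagocytes, at 28.8 FPKM (WT) and 7.62 FPKM (KO), a change of -1.79. The exchange factor Vav3 was at 17.4 and 8.12 FPKM, a change of -1.01, and the Rap exchange factor Rapgef6 at 11.7 and 5.74 FPKM, a change of -0.92. Arhgdia, the inhibitor that holds Rac and its relatives in the cytosol, was the highest of the group at 426 FPKM (WT) and 310 FPKM (KO).

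Of 12 kinases that act on the oxidase, 11 could be compared, 6 higher and 5 lower in KO. On the log2(FPKM + 1) scale 0 of them passed 2-fold. Prkca, at 0.516 FPKM (WT) and 1.84 FPKM (KO), had a change of 0.90 on that scale but a plain FPKM ratio of 3.56. The median change was 0.09, and it was -0.09 when both libraries had to reach 1 FPKM. Prkcd, a protein kinase C that phosphorylates p47phox, was the highest at 113 FPKM (WT) and 84.2 FPKM (KO), a change of -0.41. Pik3c3, which makes the phosphoinositide that p40phox binds, was at 6.46 and 12.2 FPKM, a change of 0.83. Pik3cd, a class I phosphoinositide kinase of leukocytes, was at 26.9 and 41.6 FPKM, a change of 0.61.

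Transcription factors known to act on oxidase genes numbered 8, of which 7 could be compared, 4 lower and 3 higher in KO, with a median change of -0.03 that became 0.01 at the same FPKM sum and 0.03 at the same upper quartile. Spi1, which encodes PU.1, was the highest at 367 FPKM (WT) and 301 FPKM (KO). Elf1, an Ets factor, was at 15.9 and 28.97 FPKM, a change of 0.83, and Cebpb was at 108 and 166 FPKM, a change of 0.62. Irf8, an interferon regulatory factor of myeloid cells, was at 27.3 and 21.9 FPKM, a change of -0.30.

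Of 9 partners in oxidant handling, 8 could be compared, 6 higher and 2 lower in KO, and 2 passed 3-fold, Mpo (myeloperoxidase, at 2.29 FPKM in KO) and Aqp9, both listed at 0 in WT. The median change was 0.33, and it was 0.10 when both libraries had to reach 1 FPKM, which leaves those genes out. Hvcn1, the proton channel that balances the charge moved by the oxidase, was at 18.1 FPKM (WT) and 5.79 FPKM (KO), a change of -1.49. On the log2(FPKM + 1) scale it was not counted past 3-fold, although its plain FPKM ratio, WT over KO, was 3.12. Sod1, the cytosolic superoxide dismutase, was the highest at 126 and 191 FPKM, a change of 0.60, and Sod3, the secreted form, was at 2.80 and 1.63 FPKM, a change of -0.53. Aqp9, a channel for glycerol and peroxide, was at 6.39 FPKM in KO. The plot of genes around the oxidase shows a wider range of changes in each of these groups, except the 2 further oxidase genes, than in the 7 components, and many of the wide changes belong to genes at lower levels.

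**Figure D3:**
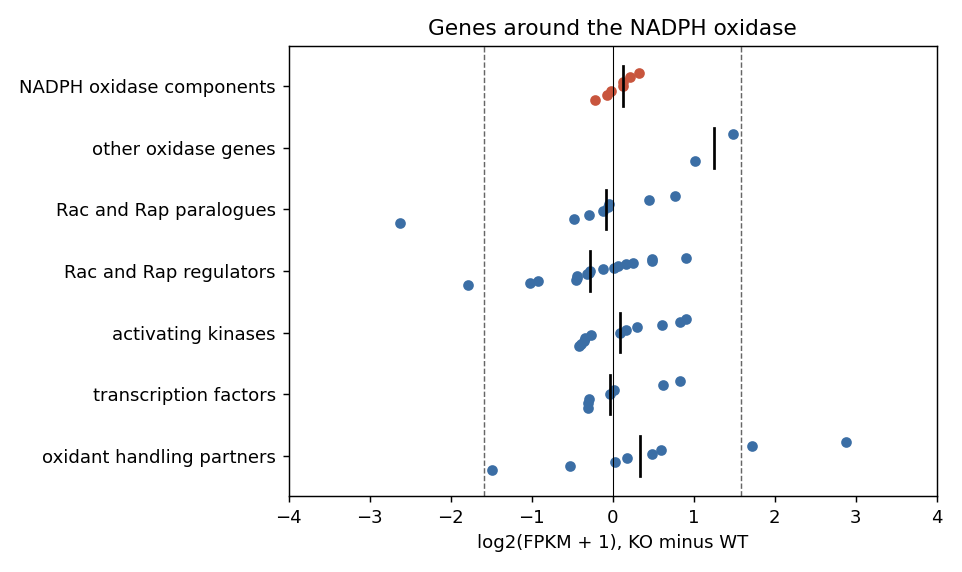
Change in log2(FPKM + 1), KO minus WT, of each gene compared, by gene list, with the median as a black bar and 3-fold as dashed lines, from 1 library per genotype. The 7 NADPH oxidase components (red) lie between -0.22 and 0.33, while Rac3 at -2.63 and Arhgap25 at -1.79 stand lowest among the other lists.

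Since neutrophils also carry the phagocyte oxidase and are rich in it, markers of the sorted cells and of other cells were set beside the members. In bulk RNA, fewer cells of a type and less RNA per cell cannot be told apart. The labelled cell type was checked first, and all 10 matched macrophage markers were at 21.9 FPKM or more in both libraries, with a median change of 0.02. C1qb was the highest at 4726 FPKM (WT) and 4663 FPKM (KO), Mertk was at 38.0 and 88.1 FPKM, Fcgr1 at 49.3 and 21.9 FPKM and Cd163 at 130 and 214 FPKM. Of 12 neutrophil markers 11 were matched and 7 compared, all 7 higher in KO with a median change of 1.32, and their summed level was 159 FPKM in WT and 531 FPKM in KO. S100a9 was at 63.4 and 301 FPKM, S100a8 at 73.3 and 182 FPKM and Csf3r at 15.5 and 24.1 FPKM. Lower in level were Lcn2 at 0.960 and 9.79 FPKM, Ngp at 0 and 2.61 FPKM and Retnlg at 0.385 and 2.46 FPKM. The granule genes Camp, Ltf, Mmp8 and Elane were listed at 0 in both libraries. Past 3-fold were 3 of the 7, S100a9, Lcn2 and Ngp, beside 27.3% of all genes compared. ATM in the study were gated as positive for the proteins of both Adgre1 and Itgam. Neutrophils carry the Itgam protein, and whether any passed the sort was not tested. The part of neutrophil RNA in the values of Cybb, Cyba, Ncf1 and Ncf4 was not tested.

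Monocytes, which enter fat from blood and carry the oxidase too, had 6 markers, 4 of them lower in KO. Ccr2 was at 29.4 FPKM (WT) and 9.78 FPKM (KO), Ly6c2 at 9.39 FPKM in WT and listed at 0 in KO, and Plac8 at 1.58 and 16.96 FPKM. The summed monocyte level was 44.5 FPKM in WT and 28.7 FPKM in KO. Of the 6 eosinophil markers, Siglecf, Prg2, Epx and Il5ra were listed at 0 in both libraries, Ccr3 was at 0 in WT and 7.45 FPKM in KO, and Alox15 was at 6.50 and 25.7 FPKM. Summed levels were 2.75 and 6.46 FPKM for B cell, 125 and 140 for dendritic cell, 90.1 and 100.1 for adipocyte, 43.2 and 83.9 for fibroblast and 14.6 and 16.1 for endothelial markers, in WT and KO. All 5 fibroblast markers were higher in KO and 2 passed 3-fold, beside 27.3% of all genes compared, 1402 of them higher and 1413 lower. The 2 were Col1a2 at 0.0948 and 4.75 FPKM and Pdgfra at 0.0246 and 4.98 FPKM. Dcn gave most of the fibroblast sum at 35.0 and 62.3 FPKM. B cell and dendritic cell markers went both ways, with Cd79b at 0 and 5.52 FPKM against Cd79a at 2.50 and 0.222, and Zbtb46 at 0 and 9.45 FPKM against Xcr1 at 1.65 and 0.0588. Cd209a gave nearly all of the dendritic cell sum at 122 and 131 FPKM, while Clec9a was listed at 0 in both libraries and Flt3 at 0 and 0.0362 FPKM. Fabp4, which macrophages also express, gave nearly all of the adipocyte sum at 90.1 and 91.4 FPKM, a change of 0.02. The defining adipocyte genes Adipoq and Plin1 were listed at 0 in both libraries, Cfd was at 0 in WT and 7.11 FPKM in KO, and Lep was at 0 and 1.60 FPKM. The 4 matched T cell markers were at 0 in both libraries. The part of these cells in the oxidase values was not tested.

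**Figure D4:**
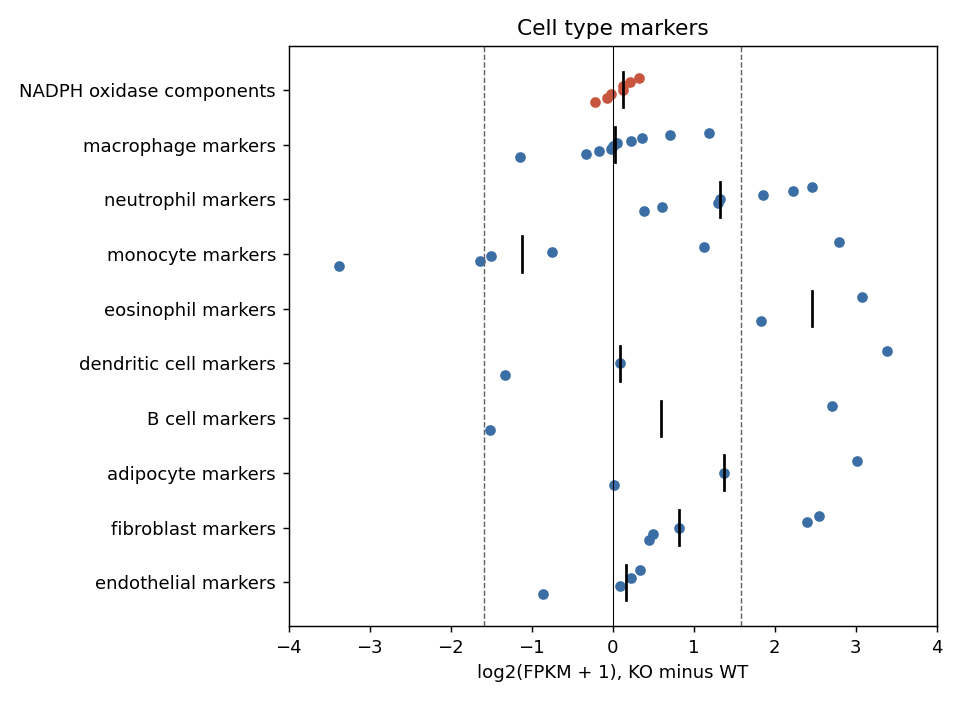
Change in log2(FPKM + 1), KO minus WT, of the cell type markers compared, beside the 7 NADPH oxidase components (red), with the median as a black bar and 3-fold as dashed lines. All 7 neutrophil markers compared are higher in KO, while the macrophage markers centre on 0.02.

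The label of the KO library rests on the genotype. FPKM summed to 585823 in WT and 568329 in KO, and Hif1a itself was at 30.4 FPKM (WT) and 20.97 FPKM (KO), a change of -0.52. The table has 1 value for the whole gene, so the deleted part was not analysed here. Apoe transcript was listed in both libraries in spite of the ApoE-/- label, at 94.3 FPKM (WT) and 117 FPKM (KO), and the disrupted part of that gene was likewise not analysed here. Hif1a transcript was still present in the KO library, and every difference above is one between the library labelled KO and the WT library.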

How the data were processed

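RNA sequencing values of sorted ATM were taken from 1 table with a WT and a KO library. The authors deposited FPKM, and the submitters' processing notes name CASAVA 1.8.2, TopHat2 2.0.9, Cufflinks 2.2.1 and mm9. The values headed mut, the only ones not headed WT, were read as the KO library. FPKM is scaled by length and mapped fragments and is not a count, so no count model was used. Of 20749 rows, 401 repeated rows were dropped and 18 further rows of an identifier were summed, and 20035 of 20330 identifiers (98.5%) had a GENCODE M21 symbol. Duoxa1, Cd68, Ly6g and Trac were not matched and are not analysed here, and 2 further genes of the planned lists are not reported here.

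Changes were log2(FPKM + 1), KO minus WT, without p-values. The pseudocount of 1 understates changes of low genes. A gene was compared if it reached 1 FPKM in either library and called at 3-fold. Python 3.11.15 with pandas 2.3.3 was used, and the procedure was tested on simulated data. Members and lists were chosen with earlier results of these data known. Named from each list were up to 3 genes of the largest change that reached 1 FPKM in both libraries, the highest gene, and any at 0 in 1 library and at 5 or more in the other. Overlapping genes, Mpo, Prkca, Lcn2, Ngp, Retnlg and genes named as listed at 0 in both libraries were chosen with values in view. So were the range of 50 to 1000 FPKM and the motif letters. B cell, dendritic cell, adipocyte, fibroblast and endothelial markers are given mainly by their summed level, with Cd79a, Xcr1, Flt3, Lep, Col1a2 and Pdgfra named after their values were seen. Alternatives were other pseudocounts, scalings, filters and row handling and a 2-fold threshold.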

Additional observations from a re-analysis of the deposited data

How the results depend on the processing

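The members' changes moved little with the processing. Over 42 recomputed member values the largest shift was 0.07, and the sign changed 2 times, both for Rac1, at 0.03 with the same FPKM sum and 0.05 with the same upper quartile. The members' median lay between 0.12 and 0.19 under all settings run, and 0 members passed the fold threshold in any of them. Of 141 recomputed values 132 stayed within an allowance of 1.5-fold, and 6 of the 141 changed sign. For changes and medians the allowance is a difference on the log2 scale, and for counts and level ratios a ratio. It is wider than the members' largest difference, 1.26-fold, so it could not show whether their changes held. Filter and row settings left each member's change as it was. Genes past 3-fold, 1402 higher and 1413 lower in KO, numbered 429 and 447 where both libraries had to reach 1 FPKM, 598 and 646 at a mean of at least 5, 2380 and 2314 at 2-fold, and 11 and 35 at a mean of 50 to 1000 (chosen after seeing the data), since these settings compare fewer genes or lower the threshold. The median of the further oxidase genes and homologues was 1.25 and went to 0.00 with no filter, where 7 genes listed at 0 enter. The kinase median, 0.09, was -0.09 under both stricter filters, which leave out Prkca, and the transcription factor median, -0.03, was 0.01 and 0.03 under the other scalings. The oxidant handling median, 0.33, was 0.10 under both stricter filters, which leave out Mpo and Aqp9, and 0.18 with no filter. No paired analysis was possible because there is a single library for either genotype. No replicate could be left out for the same reason, and no replicate error limits any value here.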
